A study of Mus musculus with 36 samples.

Results

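The lot 12 pair is a female and a male line of mouse astrocytes from the same litter, both lacking Nf1 (Nf1-/-) and both transformed with DNp53, a dominant-negative form of p53. Its members are the 6 libraries of lot 12, replicates 1, 2 and 3 of each line, taken by their lot and sex labels from 36 libraries in all. The 36 come from 10 lines, 1 of each sex in each of 5 lots, and the series describes the lots as separate litters. All were grown in DMEM/F12 with fetal bovine serum, with no other treatment, and polyadenylated RNA was read by BRB-seq, which tags each sample's transcripts with a barcode at the 3′ end before pooling. Both lines carry the same alleles, so neither is a wild-type control. With 1 line per sex in the lot, a difference between the sexes and a difference between 2 separately derived lines cannot be told apart. The labels do not say that replicates were separate cultures, so the p-values measure only the spread between these libraries, which may be technical.

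Nf1 encodes neurofibromin, which shuts off Ras by speeding its hydrolysis of GTP, and p53 holds back the cell cycle after damage. Astrocytes without both grow as tumour-like lines, and in serum such cells commonly take on a mesenchymal appearance with stress fibres and secreted matrix. Gene lists for matrix, contractile fibres, lysosomes, growth factors and biosynthesis are described below.

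Totals ranged from 4539982 to 7145432 counts per library and 12702 to 14177 genes were detected, so that 3 counts in a library stood for 0.42 to 0.661 CPM. Mitochondrial genes took 0.801 to 1.26% of the counts, and no pair of libraries of a line was identical. Xist, expressed from the inactive X, had 18, 11 and 42 counts in the female libraries and 0, 0 and 1 in the male ones. The Y-linked gene Ddx3y had 0 counts in each female library and 79, 143 and 115 in the male libraries, at least 39.9-fold lower against a floor of 3 counts per library. Nf1 transcript was near that floor in both lines, at 13, 11 and 17 counts in the female and 0, 18 and 14 in the male libraries, so a 3′ count says little of the deletion. The astrocyte label was borne out only in part. Of 16 astrocyte markers, 9 exceeded 1 CPM, led by Clu, Apoe and Gja1, while Gfap and Gjb6 were at 0 in all 6 libraries. Summed astrocyte markers spanned 366 to 727 CPM in the female and 314 to 795 CPM in the male libraries. Of 15 microglia and macrophage markers 8 were at 0, among them Aif1, Tyrobp and C1qa, and their sum was 9.95 to 18.2 CPM in the female and 5.61 to 12.8 CPM in the male line. Fibroblast and meningeal markers summed to 202 to 506 CPM in the female and 630 to 937 CPM in the male line, a difference carried by Col1a2, described below. Of the 7 fibroblast and meningeal markers tested, Aldh1a2, Col1a1 and Thy1 were higher in the female line and only Col1a2 lower. Of all genes, 2.93% were higher and 3.41% lower. The median log2 fold change of the 7 markers was 1.35. Endothelial markers summed to 28.1 to 48.0 CPM in the female and 14.5 to 16.9 CPM in the male libraries, most of the difference being Egfl7 (means of 26.2 and 6.86 CPM), while Flt1 was at 8.25 and 8.77 CPM and Cdh5 and Cldn5 at 0. In bulk RNA, fewer cells of a type and less RNA per cell cannot be told apart.

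Replicate numbers paired the libraries in this lot. The deviations of same-numbered female and male libraries from their line means correlated at 0.276 to 0.437 across genes, against -0.378 to -0.0569 for libraries of different numbers. Deviations from a mean of 3 libraries sum to 0, so positive values for same numbers bring the others below 0. The negative range is thus no separate support for the pairing. Because same-numbered libraries co-varied, the number was a block in the fit. Of 10484 genes tested, 307 (2.93%) were higher in the female line and 358 (3.41%) lower at an adjusted p under 0.05, together 6.34%. The autosomes held 285 of the higher genes (2.82% of 10119) and 355 of the lower ones (3.51%). At 2-fold or more the order turned, with 163 autosomal genes higher and 120 lower. The female libraries lay wholly above the male ones for 238 of the higher genes and wholly below for 252 of the lower genes, against 8.55 and 8.3% of all genes tested. Without the block the same comparison passed 56 genes higher (0.534%) and 50 lower (0.477%), all of them among those passed with it. The number of genes that pass thus depends on the block, and whether a gene passed without it is given for many of those below. Calls leaned toward lower with TMM scaling, where 46.2% of them were higher, and toward higher with library totals alone, where 397 were higher and 275 lower (59.1% higher).

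Extreme genes were ranked among called autosomal protein-coding genes with at least 10 CPM and lines that do not overlap. There the largest fold changes came from Gatm, Jaml and Shtn1, which were near the floor in one line. Others such as Lgals3 and Rps3a1 were well above it in both. All 30 genes with the most extreme fold changes of that ranking passed with any one replicate number left out. Of them, 11 of the 15 highest and 12 of the 15 lowest passed without the block as well. They had been taken from genes whose 3 female and 3 male libraries do not overlap, so their separation in the plot of the extremes is part of the choice.

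Gatm, the mitochondrial enzyme that starts creatine synthesis (chromosome 2, 122594467 to 122611303, minus strand, GRCm38), measured 46.6, 35.9 and 27.1 CPM in female replicates 1, 2 and 3 and 0.239, 0 and 0.781 CPM in the male ones. The male values are at or around the floor, so its log2 fold change of 6.59 ± 0.51 (SE; adjusted p = 6.4e-07) ran from 5.89 without replicate 2 to 8.47 without replicate 3. Jaml, an immunoglobulin-type adhesion molecule best known from leukocytes and epithelia (chromosome 9, 45079183 to 45108534), stood at 100.2, 86.3 and 87.7 CPM in the female and 0.718, 2.5 and 3.59 CPM in the male libraries, a log2 fold change of 5.24 ± 0.29 (adjusted p = 1.42e-08). Lgals3, a secreted galactose-binding lectin, was at 430, 410 and 322 CPM against 44.8, 38.9 and 66.7 CPM (2.96 ± 0.18; adjusted p = 3.24e-08). For each of the 3 genes the lowest female library exceeded the highest male library several-fold, and each passed without the block.

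Among the other highest genes were Ada, the adenosine deaminase of purine salvage, with 50.7 to 55.3 CPM in the female and 8.44 to 10.3 CPM in the male line (2.49 ± 0.21), and Apbb1ip, a Rap1 effector in integrin activation, with 20.3 to 26.2 against 2.66 to 4.31 CPM (2.81 ± 0.32). Uchl1, a ubiquitin hydrolase typical of neurons, reached 194, 130 and 204 CPM against 36.9, 25.1 and 65.3 CPM (2.12 ± 0.16). Mest, an imprinted gene expressed from the paternal allele, was at 22.9, 24.2 and 25.5 CPM against 3.11, 2.06 and 5.94 CPM (2.78 ± 0.35), and the gene Copg2 on the other strand shares exon bases with it. Kif1a, a kinesin of axonal transport, and Rasgrf1, an exchange factor that loads Ras with GTP, rose by 3.17 ± 0.61 and 2.97 ± 0.58 on the log2 scale. Neither of these 2 passed without the block or by DESeq2, nor Kif1a in the fit of all 36 libraries (0.0781), and Kif1a ranged from 2.15 without replicate 2 to 4.6 without replicate 3, and Rasgrf1 from 2.2 without replicate 1 to 4.05 without replicate 3. Tnnt2, the troponin T of heart muscle, was at 126, 65.5 and 94.7 CPM in the female and 17.5, 6.17 and 48.3 CPM in the male libraries. Its male replicate 3 came near the female range, and the log2 fold change of 2.29 ± 0.32 became 3.09 without replicate 3. Nup35, a nucleoporin, Grb14, an adaptor that damps insulin receptor signalling, Spata24 and Igfbp3 were higher by 2.09 to 2.51, and Igf1, the last of the 15, is described with the growth factors. Grb14 and Tnnt2 did not pass without the block (0.0593 and 0.133). Nup35 shares exon bases with Dusp19 on the same strand, so its counts may not be its alone.

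Shtn1, a regulator of axon outgrowth, headed the 15 lowest in the female line, at 0, 0.617 and 1.75 CPM against 19.4, 30.2 and 17.2 CPM. Its log2 fold change of -4.89 ± 0.57 (adjusted p = 5.56e-05) was -6.30 without replicate 3. Col2a1, the collagen of cartilage, measured 13.6, 19.3 and 11.7 CPM in the female and 88.1, 146 and 42.8 CPM in the male libraries (-2.53 ± 0.21). Prrx2 and Runx3, transcription factors of mesenchyme and of immune and neuronal lineages, fell by 2.06 ± 0.19 and 2.08 ± 0.34. Efemp1, an extracellular glycoprotein of the fibulin family, was at 55.8, 62 and 66.4 CPM against 218, 295 and 153 CPM (-1.81 ± 0.17; adjusted p = 3.69e-06). Ly6a (Sca-1), a surface antigen of stem and stromal cells, fell by 1.97 ± 0.23, Slc19a1, the reduced folate carrier, by 1.87 ± 0.19, and Gpc1, a heparan sulfate proteoglycan, by 1.78 ± 0.20. Male replicate 3 was the lowest of the male libraries for Col2a1, Prrx2, Efemp1, Ly6a, Slc19a1 and Gpc1. Mtus2, Eva1b, Nrep and Tmem159 also belonged to the 15 lowest. Of these, Mtus2 (-2.85 ± 0.36), Eva1b (-2.68 ± 0.46) and Nrep (-2.34 ± 0.32) were closest between the lines in replicate 3, and without that number stood at -3.54, -3.72 and -3.16, while Eva1b was -2.02 without replicate 1. Nrep, Eva1b and Gpc1 did not pass without the block, and Tmem159 not in the fit of all 36 libraries (0.0729).

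**Figure D1:**
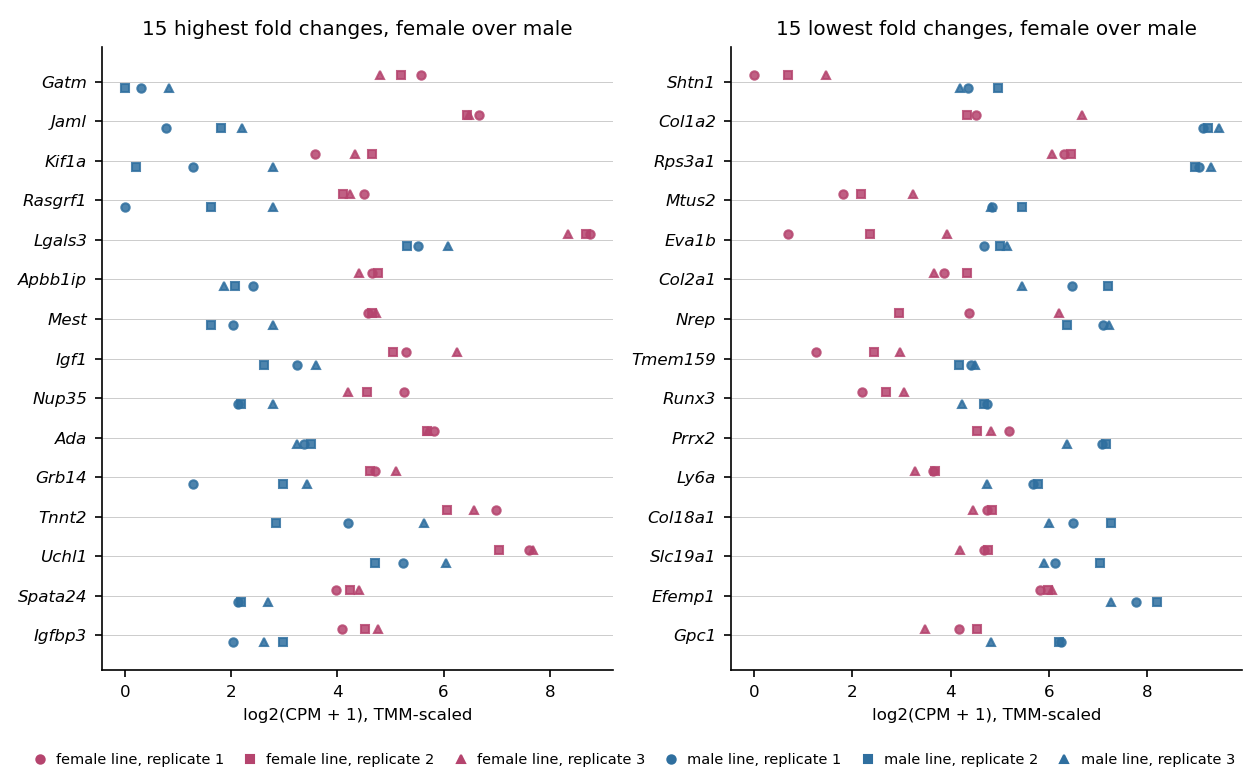
Level of each gene, as log2(CPM + 1) with TMM-scaled libraries (horizontal axis), in the 3 female and 3 male libraries of lot 12, 1 point per library and 1 marker shape per replicate number. The left panel has the 15 genes highest in the female line, from Gatm at 27.1 to 46.6 CPM against at most 0.781 CPM, and the right panel the 15 lowest, from Shtn1 down the list, and in neither panel do the lines overlap.

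Rps3a1, which encodes a protein of the small ribosomal subunit, measured 78.4, 86.2 and 65.7 CPM in the female and 534, 506 and 627 CPM in the male libraries, the smallest adjusted p among the lowest genes (8.35e-10; -2.86 ± 0.13). The processed pseudogenes Rps3a2 and Rps3a3, copies of the same transcript, were higher in the female line by 0.57 ± 0.14 and 0.83 ± 0.08. How reads were divided among such copies is not given in the sources used here, so the size of the Rps3a1 difference is uncertain.

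Fibrillar collagens are built of chains that wind into triple helices outside the cell, and lysyl oxidases crosslink them. Of 21 such genes tested, 5 rose and 4 fell in the female line, beside 2.93 and 3.41% of all genes. The median log2 fold change was 0.05, against 0.01 over all genes. The 2 chains of type I collagen moved apart. Col1a2 (chromosome 6, 4504814 to 4541544) was at 21.8, 19.1 and 101 CPM in the female and 563, 608 and 703 CPM in the male libraries, a log2 fold change of -4.08 ± 0.29 (adjusted p = 2.61e-07). Col1a1 (chromosome 11, 94936224 to 94953042) was at 143, 179 and 285 CPM against 102, 122 and 152 CPM, higher by 0.65 ± 0.12 (adjusted p = 0.00333). Every female library was thus far below every male library for Col1a2, whereas for Col1a1 female replicate 1 lay below male replicate 3. Female replicate 3 was the highest female library for both chains, and without that number Col1a2 was lower by 4.85. Col1a2 passed without the block (adjusted p = 0.00606) and Col1a1 did not (0.322), nor did Col1a1 pass in the fit of all 36 libraries (0.28). The start region of Col1a2 is shown because it is the chain that separates the lines.

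Col1a2: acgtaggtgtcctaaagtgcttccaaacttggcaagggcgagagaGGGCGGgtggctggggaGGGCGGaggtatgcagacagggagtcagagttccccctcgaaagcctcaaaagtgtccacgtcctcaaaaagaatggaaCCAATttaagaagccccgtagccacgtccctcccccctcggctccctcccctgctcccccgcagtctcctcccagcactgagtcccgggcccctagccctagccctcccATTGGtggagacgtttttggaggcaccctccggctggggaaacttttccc

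This window runs from 250 bases before the start site to 50 bases after it, chr6:4505368-4505667 on the plus strand of GRCm38.p6, from RefSeq. Capitals mark the letters CCAAT and GGGCGG on either strand, where the opposite strand reads ATTGG and CCGCCC. It holds 2 of each. CCAAT is the core bound by factors of the NF-Y type and GGGCGG the core of the GC box bound by Sp1-type factors. Across 32851 windows of the same length, 37.4% hold CCAAT and 35.7% GGGCGG, so matches of this kind are common and describe the sequence only.

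Col12a1, a collagen that decorates fibrils, fell by 1.25 ± 0.17, from 107, 106 and 140 CPM in the male to 32.1, 42.9 and 82.6 CPM in the female libraries. Of the crosslinking enzymes, Loxl1 was at 31.3, 28.2 and 57.3 CPM against 87.9, 63.7 and 95 CPM (-1.12 ± 0.17), and Loxl2 at 65.8, 36.2 and 110 CPM against 30.7, 17.8 and 54.1 CPM (1.05 ± 0.16). The Loxl1 libraries did not overlap between lines, while those of Loxl2 did, since both lines varied together by replicate number. Col5a2, a regulator of fibril diameter, was higher by 0.59 ± 0.09, and Col11a1 by 1.48 ± 0.28. Loxl3 was higher (0.74 ± 0.19) and Serpinh1, the collagen chaperone, lower (-0.31 ± 0.08), and each lost its call with 2 of the 3 replicate numbers left out in turn, Loxl3 without 1 or 3 and Serpinh1 without 1 or 2. In the fit of all 36 libraries Col5a2 (0.153), Loxl2 (0.0692) and Serpinh1 (0.231) did not pass. Of the matricellular and microfibril genes, 4 of 21 were higher and 1 lower, beside 2.93 and 3.41% of all genes, with a median of 0.27. Spp1 (osteopontin), a secreted ligand of integrins and CD44, was at 2182, 1879 and 2550 CPM against 919.7, 982.4 and 1121 CPM (1.12 ± 0.07; adjusted p = 9.51e-08, and 0.00515 without the block). Efemp2 (0.57 ± 0.10), Mfap4 (1.71 ± 0.31) and Tnc (1.01 ± 0.27) were the others, and Efemp1, above, was the 1 lower; Tnc did not pass without replicate 1, by limma voom (0.0725) or in the fit of all 36 libraries (0.0832), where Mfap4 did not pass either (0.246).

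Basement membranes are sheets of collagen IV, laminin, nidogen and heparan sulfate proteoglycan under epithelia and around vessels, and astrocytes help to build the one that lines brain vessels. None of the 14 genes tested rose in the female line and 5 fell, beside 2.93 and 3.41% of all genes. At that share, a count of 0 higher in so short a list is near the background. The median log2 fold change was -0.46, against 0.01 over all genes. Col18a1, whose cleavage releases endostatin, was at 25.7, 27.6 and 21 CPM against 89.6, 152 and 62.8 CPM (-1.96 ± 0.19; adjusted p = 4.65e-06). Lama4, a laminin chain of vessel walls, measured 1.71, 3.85 and 0.175 CPM against 11, 15.6 and 9.38 CPM (-2.88 ± 0.53, and -3.6 without replicate 2), and Nid1, which links laminin to collagen IV, 3.74, 2.16 and 5.94 CPM against 12.9, 13.5 and 11.3 CPM (-1.74 ± 0.41). The 2 main collagen IV chains fell together. Col4a1 was at 220, 232 and 380 CPM against 331, 486 and 580 CPM (-0.76 ± 0.11; adjusted p = 0.000326), and Col4a2 at 40.8, 38.2 and 56.6 CPM against 65.4, 88.4 and 121 CPM (fell by 1.001 ± 0.16; adjusted p = 0.000826). In both chains replicate 3 was the highest library of each line, and female replicate 3 overlapped the male range for Col4a1 only. Of the 5, Col18a1 alone passed without the block. Nid1 did not pass without replicate 2, and neither Lama4 (adjusted p = 0.0503) nor Nid1 (0.0584) passed in the fit of all 36 libraries. All 5 lie on chromosomes 8, 10 and 13, where the typical gene was lower in the female line, as described below; of the 8 members tested on chromosomes other than 8, 10, 13 and 15, none passed in either direction. The part of those chromosomes in the group's direction was not tested. Nor was that of endothelial cells, for which only Egfl7 was called, as higher in the female line.

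Col4a1 and Col4a2 start next to each other on opposite strands, and their start regions are shown because the pair moved together.

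Col4a1: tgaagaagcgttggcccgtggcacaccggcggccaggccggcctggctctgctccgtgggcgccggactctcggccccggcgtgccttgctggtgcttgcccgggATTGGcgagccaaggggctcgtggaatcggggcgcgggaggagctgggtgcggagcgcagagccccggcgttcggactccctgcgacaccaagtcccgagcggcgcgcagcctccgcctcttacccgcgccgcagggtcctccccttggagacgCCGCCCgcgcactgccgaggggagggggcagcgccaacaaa

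Col4a2: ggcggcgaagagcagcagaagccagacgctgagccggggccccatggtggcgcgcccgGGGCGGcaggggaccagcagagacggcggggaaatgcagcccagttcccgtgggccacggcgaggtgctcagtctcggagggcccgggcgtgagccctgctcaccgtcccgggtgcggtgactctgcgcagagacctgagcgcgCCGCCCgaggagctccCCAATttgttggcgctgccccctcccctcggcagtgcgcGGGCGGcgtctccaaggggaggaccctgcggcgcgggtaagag

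The Col4a1 window is chr8:11312777-11313076 on the minus strand and the Col4a2 window chr8:11312555-11312854 on the plus strand, both from RefSeq on GRCm38.p6 and both written 5′ to 3′ along their gene. Capitals mark CCAAT and GGGCGG on either strand as before. The 2 windows share 78 bases, read from opposite strands, and the annotated 5′ ends themselves overlap by 22 bases. The Col4a1 window holds 1 CCAAT and 1 GGGCGG, and the Col4a2 window 1 CCAAT and 3 GGGCGG.

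Contractile genes encode smooth muscle actins, myosin light chains, tropomyosins and their partners, which form stress fibres in cultured mesenchymal cells. Of 16 tested, 6 fell and 3 rose in the female line, beside 3.41 and 2.93% of all genes, with a median log2 fold change of -0.14. Of the 6, Myl6 and Cnn2 lie on chromosome 10, where the typical gene was lower, as described below. The 13 members outside chromosomes 8, 10, 13 and 15 had 3 higher and 4 lower, with a median of 0.18. Those chromosomes had the lowest medians of the autosomes in these same data, so leaving them out tends to raise the rest. Acta2, smooth muscle actin, was at 8003, 6836 and 9663 CPM in the female and 10850, 12885 and 10232 CPM in the male libraries (-0.48 ± 0.10; adjusted p = 0.00646). Its highest female library was only just below its lowest male library, and scaled by library totals alone female replicate 3 lay above male replicate 1 (10486 against 9980 CPM). It passed neither without the block (adjusted p = 0.249), by DESeq2 (0.306) nor in the fit of all 36 libraries (0.0701). Myl9, a regulatory myosin light chain, was at 541.5, 454.7 and 1024 CPM against 1211, 1373 and 1389 CPM (-1.06 ± 0.14), and Myl6, an essential light chain, at 4583, 4966 and 4494 CPM against 6749, 7547 and 5292 CPM (-0.47 ± 0.06). Tpm2, a tropomyosin, fell by 0.47 ± 0.08, Tagln2 by 0.33 ± 0.07 and the calponin Cnn2 by 0.35 ± 0.10, and the lines overlapped for all 3. In the fit of all 36 libraries Tpm2 (0.0678), Tagln2 (0.0691) and Cnn2 (0.175) did not pass. Tagln2 and Cnn2 did not pass without replicate 2, and Cnn2 not by DESeq2 either. Mural cell markers summed to 6898 to 10607 CPM in the female and 10067 to 12385 CPM in the male libraries, nearly all of it Acta2, while Rgs5, Kcnj8 and Abcc9 were at 0.

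Other genes of the same fibres went up. Cald1, which encodes caldesmon and holds back actomyosin, was at 4764, 5696 and 6176 CPM in the female and 3868, 4381 and 4688 CPM in the male libraries (0.36 ± 0.05; adjusted p = 0.00038). Actg2, the enteric actin, was at 31.3, 8.33 and 90.5 CPM against 5.03, 5.43 and 23.3 CPM (1.77 ± 0.30), where the swing with replicate number was larger than the line difference and the lines overlapped. Tagln (transgelin) was higher by 0.30 ± 0.08, without a call when replicate 1 or 3 was left out, by DESeq2 (0.0693) or in the fit of all 36 libraries (0.43). The list was therefore split and not shifted as a whole: without replicate 2 it had 4 higher and 4 lower, in the fit of all 36 libraries 3 higher and 2 lower, and its median turned to 0.20 and 0.12. No member passed without the block. Tpm4, a tropomyosin counted among actin cytoskeleton targets of SRF, was lower with little spread, at 785.9, 756.4 and 768.6 CPM against 1345, 1353 and 1189 CPM (-0.75 ± 0.07; adjusted p = 9.47e-06), and passed without the block (0.0202). It lies on chromosome 8. It was 1 of 19 such targets lower, with 1 higher, the X-linked Fhl1.

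**Figure D2:**
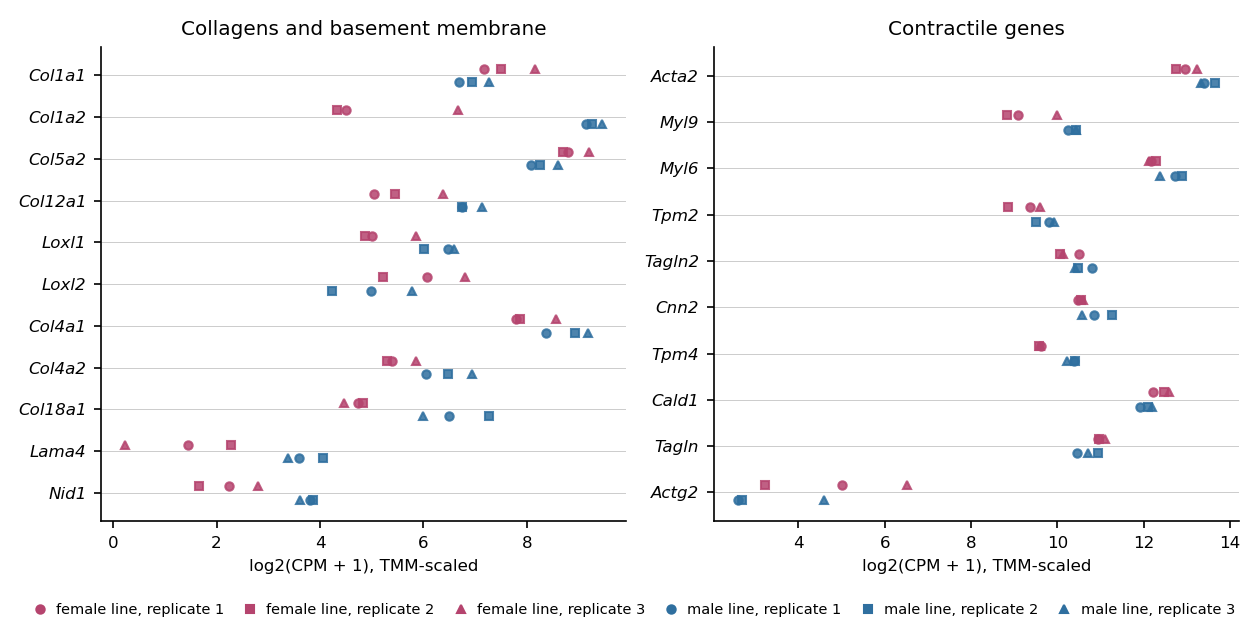
Level as log2(CPM + 1), TMM-scaled (horizontal axis), of collagen, crosslinking and basement membrane genes (left) and contractile genes (right) in the 6 libraries, 1 point per library and 1 marker shape per replicate number. Col1a2 lies at 19.1 to 101 CPM in the female and 563 to 703 CPM in the male line while Col1a1 is higher in the female line, and Acta2, Myl9 and Myl6 are lower while Cald1 and Actg2 are higher.

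Lysosomal hydrolases and their inhibitors gave more higher than lower calls. Of 18 cathepsin, cystatin and related genes tested, 7 were higher and 1 lower, where 2.93% of all genes were higher and 3.41% lower, and the median log2 fold change was 0.44 against 0.01. Ctsd, the main aspartic protease of the lysosome, was at 1200, 1501 and 1995 CPM in the female and 516, 699.1 and 878 CPM in the male libraries (1.17 ± 0.07; adjusted p = 4.33e-08). In every pair of the same number the female library was more than 2-fold the male one. Cst6, a secreted cysteine protease inhibitor, was at 203, 341 and 188 CPM against 85.2, 115 and 89.4 CPM (1.30 ± 0.12; adjusted p = 5.33e-06). Of the list, Ctsd, Cst6 and Ctsz, below, passed without the block too. Hexa, a subunit of the hexosaminidase that degrades gangliosides, was higher by 0.90 ± 0.15. Ctsh was higher by 1.86 ± 0.39, the cholesterol carrier Npc2 by 0.43 ± 0.09 and Ctsa by 0.59 ± 0.13, and these 3 did not pass without replicate 1, which left 4 higher and 1 lower. Ctsa did not pass in the fit of all 36 libraries either (0.107). Ctsz, a carboxypeptidase, went against the rest at 53.6, 55.7 and 106 CPM compared with 174, 186 and 147 CPM (-1.30 ± 0.20).

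Calls among growth factor genes were few and included Igf1 and Egfr. Igf1, the ligand of the IGF receptor, was at 38.2, 32.2 and 75.1 CPM in the female and 8.38, 5.14 and 11.1 CPM in the male libraries (2.54 ± 0.23; adjusted p = 3.24e-06), and passed without the block. It lies on chromosome 10, where it was 1 of 7 genes higher. Of 9 IGF binding proteins and related genes, 2 were higher and 1 lower. Igfbp5 was at 98.7, 44.3 and 293 CPM against 16.8, 15.7 and 100.5 CPM (1.82 ± 0.19), so that male replicate 3 exceeded 2 female libraries although every pair was higher in the female. Igfbp3 was at 15.9, 22 and 26 CPM against 3.11, 6.9 and 5.16 CPM (2.09 ± 0.32), and Igfbp2 was lower by 0.83 ± 0.18, without a call when replicate 2 was left out or in the fit of all 36 libraries (0.076). Egfr, the EGF receptor, was at 32.3, 35.9 and 40.3 CPM against 5.75, 11.5 and 17.5 CPM (1.72 ± 0.26; adjusted p = 0.000659), with its adjusted p at 0.0506 without the block. Hbegf, a ligand of that receptor, was higher by 0.60 ± 0.08. Axl, a receptor of Gas6, was higher by 0.43 ± 0.11 but not without replicate 2. Egfr and Axl were the 2 of 20 receptor tyrosine kinases that passed, with none lower, beside 6.34% of all genes in either direction. Of 25 secreted growth factors tested, Igf1 and Hbegf were higher and Fgf7, a keratinocyte growth factor at 1.56 to 4.47 against 7.49 to 14.4 CPM, lower (-2.13 ± 0.50). Fgf7 missed the threshold without replicate 1 or 3 and was -2.92 without replicate 2. Sfrp1, a secreted Wnt antagonist, was higher in the female line, at 63.8, 75.7 and 69.2 CPM against 30.2, 23.6 and 17.8 CPM (1.57 ± 0.19; adjusted p = 9.31e-05, and 0.00674 without the block).

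Of 20 YAP and TEAD targets, 3 were higher and 1 lower, beside 2.93 and 3.41% of all genes, and the median was 0.25. Ccn2, a matricellular protein and classic target, was at 1109, 1238 and 1477 CPM in the female and 1808, 2553 and 1931 CPM in the male libraries (-0.71 ± 0.09), and its paralog Ccn1 at 513, 858 and 586 CPM against 279, 615 and 476 CPM (0.55 ± 0.10). Ccn2 lies on chromosome 10. Igfbp3 and Axl, above, were the other 2 higher. Of 11 complement and coagulation genes, 4 were lower and 1 higher. Among the 4, Thbd, thrombomodulin, had no count in the female libraries and 4.07, 5.73 and 2.19 CPM in the male ones, at least 8.26-fold lower against a floor of 3 counts per library.

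ERK feedback genes, which report Ras signalling, showed no call in either direction among 18 tested, and their median was -0.08. Since 6.34% of all genes passed, a count of 0 in so short a list is near the background and leaves Ras output undecided. Of 18 Ras GTPases and regulators, Rasgrf1 was higher and Dab2ip lower. Among the G1 regulators, 2 of 20 were higher and 2 lower. Of all genes, 2.93% were higher and 3.41% lower. Cdk4 was at 253, 266 and 192 CPM against 373, 383 and 272 CPM (-0.53 ± 0.10) and Cdk6 at 22.6, 29.6 and 35.5 CPM against 52.4, 53.7 and 73.5 CPM (-1.04 ± 0.17), the 2 kinases that cyclin D activates. Cdkn2b, the inhibitor p15 of those kinases, was higher by 1.13 ± 0.22 and Ccnd2, cyclin D2, by 0.54 ± 0.11, the last not without replicate 1. Cdk4 lies on chromosome 10, and an opposite-strand gene, Tspan31, shares exon bases with it. None of the 4 passed without the block, and Cdk6 not in the fit of all 36 libraries (0.0691). Of 40 S phase and mitosis genes, only Cdk1 passed (-0.36 ± 0.10), beside 6.34% of all genes. Cdk1 lost its call without replicate 1 or 3, and in the fit of all 36 libraries (0.0678).

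NF-kB and STAT3 signalling is named in the title of the series. Of 29 pathway components tested, none passed, and since 6.34% of all genes passed, a count of 0 in a list of this size is near the background. Rela was at 65.2, 45.6 and 41.4 CPM in the female and 64.4, 52.1 and 29.2 CPM in the male libraries, a log2 fold change of 0.10 ± 0.18. Nfkb1 (0.08 ± 0.49), Nfkb2 (0.18 ± 0.24), the shared cytokine receptor chain Il6st (-0.04 ± 0.21) and Stat3 itself (0.59 ± 0.31; adjusted p = 0.325) did not pass. At these levels a difference the size of Stat3's is not resolved, and for Nfkb1, at 2.63 to 7.19 CPM, depth allows even less. Of 21 NF-kB targets, Cx3cl1, a membrane-bound chemokine, was higher at 159, 212 and 262 CPM against 104, 117 and 99.7 CPM (0.96 ± 0.14, also without the block) and Ptgs2, the inducible cyclooxygenase, lower at 14, 15.7 and 21.3 CPM against 34.5, 31.4 and 53.1 CPM (-1.20 ± 0.21). The 1 of 23 STAT3 targets that passed was the X-linked Timp1. None of 10 interferon response genes passed, and another 22 of that list were too low to be tested. By unadjusted p under 0.05, 2002 genes of the whole table differed, so these counts are read against the adjusted threshold only.

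Of 13 retinoid genes, 3 were higher and 1 lower, beside 2.93 and 3.41% of all genes. Crabp1, which binds retinoic acid in the cytosol, was at 526, 569 and 449 CPM in the female and 1071, 932.6 and 709 CPM in the male libraries (-0.80 ± 0.09; adjusted p = 2.81e-05), and did not pass in the fit of all 36 libraries (0.0633). The enzyme Aldh1a2, which makes retinoic acid, was at 8.73, 4.32 and 14.5 CPM against 1.2, 0 and 1.09 CPM (3.76 ± 0.65). Its male values were near the floor of 3 counts. Aldh1a1 (2.95 ± 0.80) was likewise low, moved from 2.31 to 4.72 and lost its call without replicate 2, by limma voom (0.0702) and in the fit of all 36 libraries (0.143).

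Chaperones moved both ways. Of 17 heat shock genes, 2 were higher and 3 lower, beside 2.93 and 3.41% of all genes. The small heat shock proteins went opposite ways: Cryab was at 424, 342 and 450 CPM in the female and 188, 188 and 158 CPM in the male libraries (1.18 ± 0.12; adjusted p = 9.94e-06), and Hspb1 at 86.2, 59.2 and 142 CPM against 222, 169 and 554 CPM (-1.62 ± 0.13; adjusted p = 7.55e-07). For Cryab the libraries of a line lay close together and it passed without the block, while for Hspb1 replicate 3 was the highest in both lines and it did not (0.0938). Of the large ones, Hsp90aa1 fell by 0.43 ± 0.07 and Hsph1 by 0.68 ± 0.13, and Hspa8 was higher by 0.32 ± 0.07. Of 20 endoplasmic reticulum chaperones 3 fell, Hsp90b1, Calr and Herpud1, and all 3 lie among the 4 members on chromosomes 8, 10, 13 and 15. Galectins also split, since Lgals1, at 22970, 19511 and 19320 CPM against 32769, 26787 and 21948 CPM, was lower by 0.38 ± 0.05 while Lgals3 was 2.96 higher.

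Neural genes were called in both directions. Nes, nestin of neural progenitors, was at 94.5, 94.5 and 119 CPM in the female and 125, 185 and 201 CPM in the male libraries (-0.72 ± 0.13), but passed neither without the block (0.156) nor in the fit of all 36 libraries (0.052). Tuba1a, a tubulin of growing neurites, fell by 0.61 ± 0.07 and the neuronal Tubb3 by 1.55 ± 0.23, at 14.5, 9.41 and 16.9 CPM against 29, 32.6 and 61.1 CPM. Uchl1, above, was the 1 of 19 tubulin and neuronal cytoskeleton genes higher, and 3 were lower, 4 of 19 beside 6.34% of all genes. All 3 lower genes lie among the 8 members on chromosomes 8, 10, 13 and 15, described below. Of the 11 other members only Uchl1 passed. Tubb3 passed without the block (0.0497). Of the 6 astrocyte markers tested, Clu was higher (0.73 ± 0.12) and none lower.

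**Figure D3:**
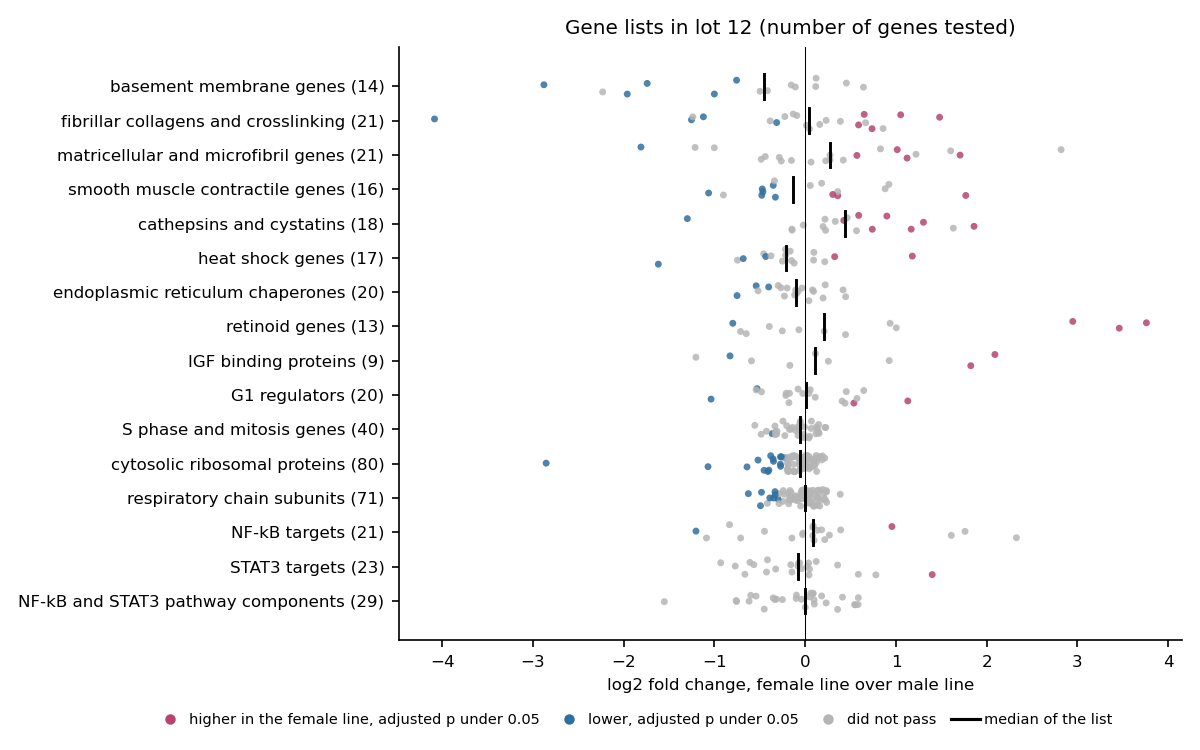
Log2 fold change, female line over male line (horizontal axis), of each tested gene in 16 lists, with the number tested in brackets. Magenta points passed as higher, blue points passed as lower at an adjusted p under 0.05, grey points did not pass, and the black bar is the list's median, -0.46 for basement membrane genes and 0.44 for cathepsins and cystatins, against 0.01 over all genes.

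The lower calls were concentrated on chromosomes 10, 15 and, less so, 8, beside 3.51% of all autosomal genes lower. Chromosome 10 had 71 genes lower and 7 higher of 506 tested, chromosome 15 had 57 lower and 2 higher of 414, and chromosome 8 had 35 lower and 12 higher of 597. Chromosome 13 had 14 lower and 7 higher of 403, near that share. Chromosome 12 (15 lower and 5 higher of 355) and chromosome 1 (23 lower and 19 higher of 618) had no smaller share lower. Chromosomes 10 and 15 alone held 128 of the 355 autosomal genes lower in the female line. On these 2 chromosomes, only 22 of the 128 were lower by 2-fold or more. Over genes with a mean of at least 16 CPM, the median log2 fold change was -0.35 on chromosome 10 (267 genes), -0.30 on chromosome 15 (236 genes), -0.20 on chromosome 8 (313 genes) and -0.16 on chromosome 13 (205 genes). Along each of these chromosomes, in bins of 20 Mb, every bin had a median under 0: 7 of 7 bins on chromosome 10 (-0.43 to -0.20), 6 of 6 on chromosome 15 (-0.39 to -0.25), 7 of 7 on chromosome 8 (-0.30 to -0.15) and 6 of 6 on chromosome 13 (-0.19 to -0.11). The shift was thus small per gene, of 1 sign, and spread over the length of each of them. Bins of 1 sign were not particular to them. Chromosomes 1, 12 and 18 also had every bin median under 0, with medians of -0.08, -0.10 and -0.05 over the chromosome. With library totals alone in place of TMM the medians were -0.28, -0.23, -0.13 and -0.09 for chromosomes 10, 15, 8 and 13. Chromosomes 3, 11 and 17 had medians of 0.11, 0.11 and 0.10. Chromosomes 8, 10, 13 and 15 were picked from these same data, where they had the lowest medians of the autosomes. Members of a list outside them thus tend to lie higher, and splitting a list by them is no separate support. DNA copy number was not measured.

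Lower calls among respiratory chain subunits lay on chromosomes 8, 10, 13 and 15, and those among ribosomal proteins lay there in part. Of 71 nuclear-encoded respiratory chain subunits, 8 were lower and none higher, beside 3.41 and 2.93% of all genes. The 8 were among the 19 members on chromosomes 8, 10, 13 and 15, where the members' median was -0.29. Atp5b, a catalytic subunit of ATP synthase on chromosome 10, was at 1110, 1094 and 937.8 CPM in the female and 1528, 1531 and 1327 CPM in the male libraries (-0.48 ± 0.07; adjusted p = 0.000332). Ndufs6 on chromosome 13 fell by 0.63 ± 0.10, Cox4i1 on chromosome 8 by 0.35 ± 0.06, and the other 5 were Ndufs7, Ndufb9, Uqcr11, Atp5g2 and Cox7c. Over the whole list the median was -0.01, and no member passed without the block. Of 80 cytosolic ribosomal proteins, 15 were lower and none higher, beside the same shares of all genes. Of the 15, 9 were among the 12 members on those 4 chromosomes. The median of those 12 was -0.35, and of the other 68 members -0.04. The other 6 lower genes lay elsewhere, among them Rps3a1, Rpl34 and Rplp0, the largest 3 differences of the list. Rpl34 was at 751, 797 and 597 CPM against 1598, 1598 and 1298 CPM (-1.07 ± 0.07, also without the block) and Rplp0 at 3638, 3376 and 2842 CPM against 5607, 5112 and 4619 CPM (-0.64 ± 0.05). The pseudogene Rpl34-ps1 was higher by 0.67 ± 0.12, so for Rpl34, as for Rps3a1, the division of reads among copies leaves the size uncertain. With library totals alone 4 ribosomal protein genes were higher and 12 lower.

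**Figure D4:**
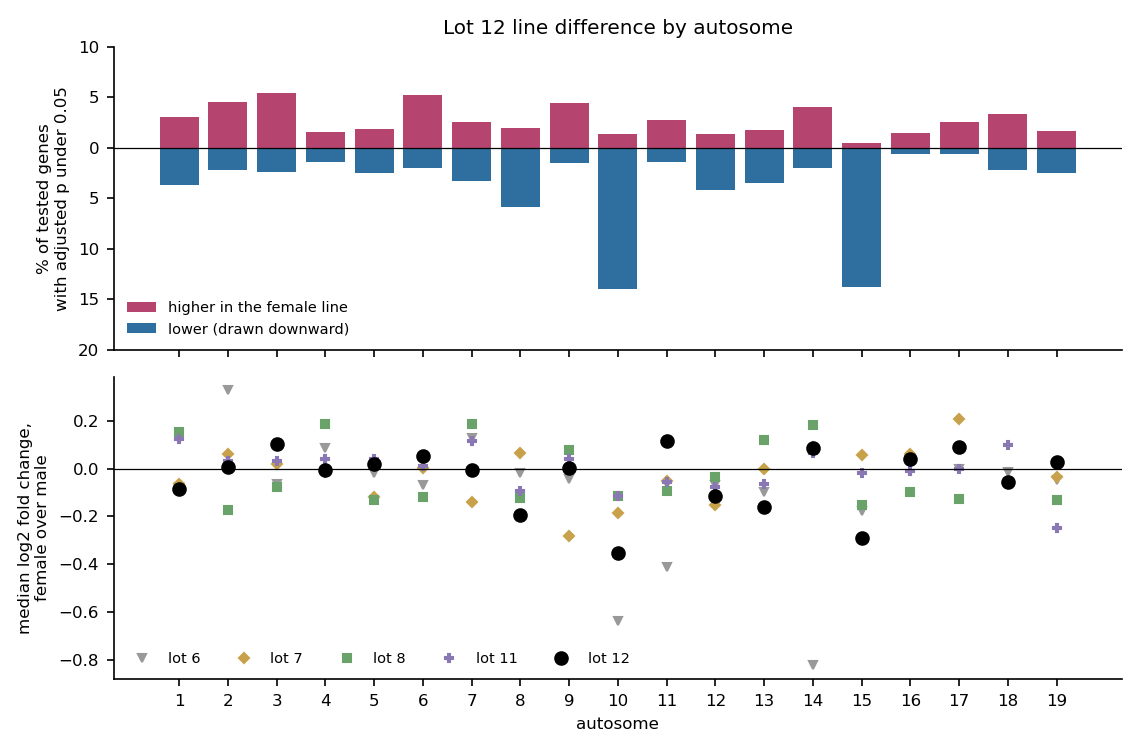
Upper panel, percent of the tested genes of each autosome (horizontal axis) with an adjusted p under 0.05 in lot 12, higher genes drawn upward and lower genes downward from 0. Lower panel, median log2 fold change, female over male, of genes with at least 16 CPM on each autosome in lot 12 (black circles) and in the other lots; chromosomes 10 and 15 stand at -0.35 and -0.29 in lot 12, and chromosome 10 is below 0 in all 5 lots.

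The replicate number also left a mark on many genes. At an adjusted p under 0.05, 714 genes (6.81%) differed between replicate numbers, 159 of which also differed between lines. The test of the numbers takes all 3 together and that of the lines a single difference, so their counts are not alike. Most of the 10 autosomal protein-coding genes of smallest p act in mitosis. Cdc20, which activates the anaphase-promoting complex, was at 310, 78.8 and 214 CPM in female and 334, 70.8 and 252 CPM in male replicates 1, 2 and 3. Ccnb1, cyclin B1, was at 255, 63.7 and 185 CPM against 318, 57.5 and 230 CPM, and Cenpa, the centromeric histone, at 334, 56.3 and 206 CPM against 351, 32.6 and 269 CPM. Cdkn3, Cenpf, Ube2c, Arl6ip1 and Cdca3 behaved alike, with replicate 2 lowest in each line. Nupr1, a stress-response gene, was lowest in replicate 2 and highest in replicate 3, at 332, 152 and 780 CPM in the female and 438, 178 and 800 CPM in the male line. In all, 28 of 40 S phase and mitosis genes and 57 of 80 ribosomal protein genes differed between numbers, and summed mitosis genes took 0.528 and 0.497% of the counts in replicate 2 against 0.578 to 0.708% elsewhere. The numbers have no order, and what they stand for is not in the labels. Igfbp5, Actg2, Tnnt2 and Nrep differed both with the number and between the lines and did not pass without the block, while Ctsd, Crip2, Uchl1 and Igf1 also differed with both and did.

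**Figure D5:**
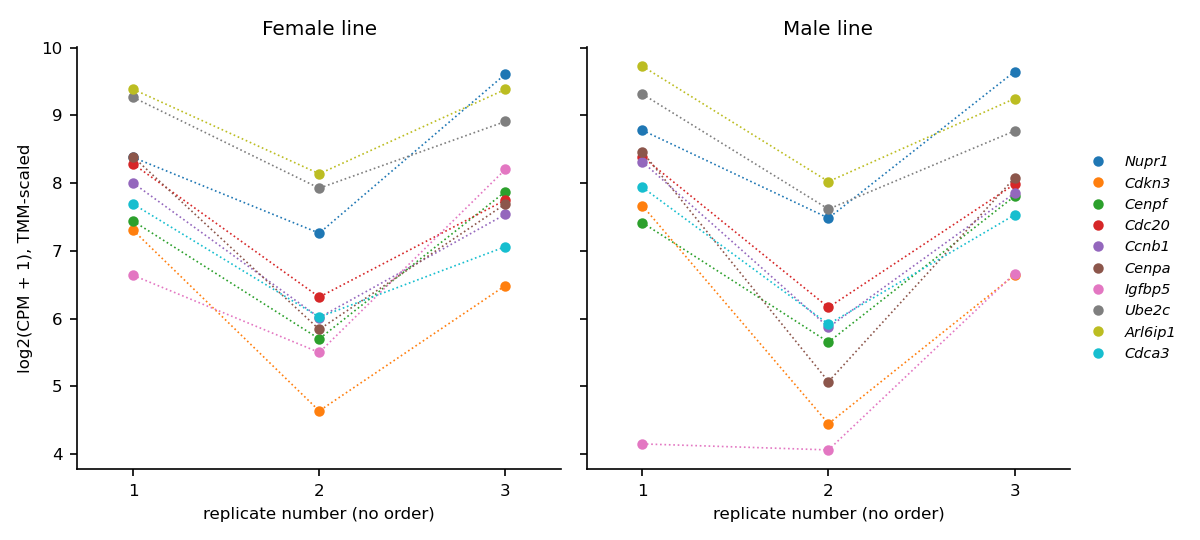
Level as log2(CPM + 1), TMM-scaled (vertical axis), of the 10 autosomal protein-coding genes with the smallest p for a difference between replicate numbers, by replicate number (horizontal axis) in the female line (left) and the male line (right), 1 point per library with dotted lines joining a gene's points. All 10 are lowest in replicate 2 of both lines, as for Cdc20 at 78.8 and 70.8 CPM.

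Set against the other litters, the pair departed in both directions. In a fit of all 36 libraries, the lot 12 difference lay above the mean of the other 4 lots' differences for 385 of 12173 genes (3.16%) and below it for 322 (2.65%). These counts lean on the lot 12 libraries, since they were 193 and 178 without replicate 1 of lot 12 and 181 and 150 without replicate 2. Igf2bp3, an RNA-binding protein of fetal tissue, was higher in the female line of lot 12, at 13.4, 7.86 and 7.86 CPM against 1.44, 0 and 2.81 CPM, and lower in the female line of lots 6, 7, 8 and 11, by 4.25, 4.38, 5.75 and 3.84 on the log2 scale. The difference of differences was 7.57 ± 0.64 (adjusted p = 5.58e-11). In lot 12 itself its log2 fold change ran from 2.25 without replicate 2 to 4.25 without replicate 3, and Malsu1, on the other strand, shares exon bases with it. Tnnt2 was likewise higher in lot 12 and lower in the female line of each of the other 4 lots, with a difference of 4.204 ± 0.39. Aebp1, a secreted carboxypeptidase-like protein of matrix, was at 211, 290 and 289 CPM against 96.5, 135 and 58.3 CPM in lot 12, and lower in the female line of lots 6, 7 and 8 (3.82 ± 0.29). The lot 12 differences of Aebp1, and of Mtap, Ifitm3 and Crip2 below, passed without the block.

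Jaml and Gatm differed in other ways among the litters. Jaml was 5.00 higher in the female line of lot 8 and 4.14, 1.21 and 2.64 lower in lots 6, 7 and 11 on the log2 scale, and the difference of lot 12 from the mean of the others was 5.99 ± 0.40. Gatm was at 25.3 CPM in the male line of lot 7 and at most 1.45 CPM in the other 7 lines outside lot 12, where the lot 12 female line had 35.2 CPM in the same fit. Mtap, the methylthioadenosine phosphorylase, was higher by 1.31 ± 0.18 in lot 12, at 186, 195 and 155 CPM against 66.1, 55.1 and 102 CPM, which exceeded the mean of the others by 1.55 ± 0.15. Below the other lots were F3, tissue factor, which was 0.69 ± 0.14 lower in lot 12 and higher in the female line of all 4 others, with a difference of -2.64 ± 0.22, and Ifitm3, a restriction factor for virus entry, which was 1.30 ± 0.19 lower in lot 12 and higher in lots 6, 7 and 8 (-3.44 ± 0.30). Crip2, a LIM protein of vessel and heart, was at 271, 304 and 172 CPM against 823, 1117 and 442 CPM (-1.62 ± 0.10), and higher in the female line of lots 7, 8 and 11 (-2.14 ± 0.17). Acta2 was 1.61 and 2.58 higher in the female line of lots 6 and 7, and its lot 12 difference lay 1.55 ± 0.17 below the mean of the others. Loxl1, lower in lot 12, was higher in the female line of lots 6, 7 and 8 and lower in lot 11 (-1.64 ± 0.16).

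Calls were shared with other litters in part, and opposite calls were common. Of the 285 autosomal genes higher in the female line of lot 12, 108 (37.9%) were also higher in lot 6, where 14.2% of autosomal genes were higher and 14.9% lower, and 60 (21.1%) went the other way there. Lot 8 shared 77 (27.0%) and had 32 (11.2%) the other way, where 7.14% of all autosomal genes were higher and 5.96% lower. Lot 7 shared 54 (18.9%) and had 47 (16.5%) the other way, against 6.13 and 6.64%. Lot 11 shared 31 (10.9%) and had more, 38 (13.3%), the other way, against 1.77 and 3.23%. Of the 355 lower genes, 169 (47.6%) were also lower in lot 6 and 53 (14.9%) higher. Lots 7, 8 and 11 shared 70 (19.7%), 73 (20.6%) and 52 (14.6%) of them, with 48 (13.5%), 56 (15.8%) and 15 (4.23%) the other way. In all, 111 of the 285 and 115 of the 355 went the other way in at least 1 other lot. No gene was higher in all 5 lots, and 13 were higher in 3 of the other 4, among them Mest, Igfbp5, Grb14, Cald1, Actg2 and Tagln. Mest was higher in the female line of lots 6, 8 and 11 by 5.64, 3.86 and 5.21. Of the lower genes, 4 passed in all 4 other lots and 22 in 3 of them, among them Efemp1 and the ribosomal protein genes Rpl34, Rplp0, Rpl30 and Rps12. The median of chromosome 10 was -0.64, -0.19, -0.11 and -0.11 in lots 6, 7, 8 and 11.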

How the data were processed

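RNA behind 36 libraries was read by BRB-seq, with barcoded oligo-dT primers and pooled cDNA, per the labels' protocols. The deposited table holds read counts per gene, made by the authors. Tools listed per the submitters' processing notes are Subread 2.0.2, STAR 2.7.6a and cutadapt 2.10, with GRCm38 as the build. Whether molecular identifiers were collapsed, the strand setting and the annotation release are not given in the sources used here. Gene positions come from GENCODE M21 (GRCm38), which matched 45229 of 46078 identifiers, and genes without a match held 0.0278% of lot 12 counts.

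The 6 lot 12 libraries were fitted with edgeR 4.0.16 (quasi-likelihood F test, TMM scaling, filterByExpr by line, replicate number as a block, Benjamini-Hochberg adjustment over all genes, threshold 0.05). Every adjusted p in the text is from this fit unless another is named. Log2 fold changes are female over male, ± is the standard error taken from the F statistic, and CPM is TMM-scaled. Same-numbered libraries co-varied in lot 12 (0.276 to 0.437 over 3 pairs), while in the other lots same-numbered pairs correlated at -0.0972 to 0.286. The lot comparison used all 36 libraries with 1 coefficient per line and the block within lot 12. The fit was tested on simulated data.

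Genes named by rank are autosomal protein-coding genes: the 15 highest and 15 lowest non-overlapping called genes with at least 10 CPM, up to 5 genes per list by p, the 10 of smallest p for the replicate number, and 8 in each direction against the other lots. A fixed few, such as Rela, Acta2, Xist and Ddx3y, were named as well. Other list members, other sex-linked genes and pseudogene copies were named after their values were seen. The comparison, its lists and its rules were chosen with earlier results of these data known. Alternatives were RLE scaling, library totals alone, other filters, DESeq2 1.42.0, limma voom 3.58.1, no block and leaving out each replicate. Start regions are RefSeq, GRCm38.p6. Libraries of other lots enter only the lot comparison. A few members of the lists are counted but not reported here by name.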

Additional observations from a re-analysis of the deposited data

Results flagged for a closer look

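The female-minus-male difference of lot 12 was set against the mean difference of the other 4 lots in one fit, and 385 genes lay above and 322 below at an adjusted p under 0.05. Of the 8 autosomal genes of smallest p above, the difference of differences (log2) was 5.99 for Jaml, 3.82 for Aebp1, 7.57 for Igf2bp3, 4.204 for Tnnt2, 1.55 for Mtap, 4.60 for Apbb1ip, 2.16 for Uchl1 and 9.07 for Gatm. Apbb1ip, a Rap1 effector, was 5.00 and 2.99 lower in the female line of lots 6 and 11. Of the 8 below, it was -2.75 for Rps3a1, -2.14 for Crip2, -2.64 for F3, -3.44 for Ifitm3, -3.56 for Adm, -1.64 for Loxl1, -1.55 for Acta2 and -4.04 for Nrep. Adm, the vasodilator peptide adrenomedullin, was 5.96 higher in the female line of lot 6, and in lot 12 alone its adjusted p was 0.0504. Nrep was 3.88 and 3.81 higher in the female line of lots 6 and 7.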

How the results depend on the processing

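Without the replicate block, 56 genes passed as higher and 50 as lower. With no filter on low counts, 465 were higher and 1296 differed between replicate numbers. Leaving out a replicate number, or a single library without the block, gave 18 to 388 genes higher and 18 to 468 lower. Against the other lots, leaving out a lot 12 replicate gave 181 to 316 genes above and 150 to 253 below. Of 108 called genes described in the text none changed sign under any alternative, and 103 still passed by DESeq2, 106 by limma voom, 85 in the fit of all 36 libraries, 42 without the block and 98, 101 and 104 without replicate 1, 2 and 3. All 307 higher calls and 357 of the 358 lower calls had 3 pair differences of 1 sign. Leaving out a number could therefore hardly turn a called gene, and the other settings reuse the same lot 12 libraries. The lack of sign changes is thus no separate support. Genes that were not called did turn. Nfkb1 was -0.0446 by limma voom, and with library totals alone Il6st was 0.0244 and Trp53 0.0336. Ranges (log2) were taken over fits without a replicate number and fits without both the block and a single library. They were -0.20 to 0.31 for Rela, -0.48 to 0.46 for Nfkb1 and -0.0632 to 0.42 for Nfkb2. For Il6st the range was -0.23 to 0.24, for Nf1 -0.13 to 1.66 and for Trp53 -0.11 to 0.0608. The cause was not tested. With 3 libraries a line, genes under a few CPM carry wide errors.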

Other observations

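Some groups outside those above also held calls, beside 2.93% of all genes higher and 3.41% lower. Of 22 glycolysis and hypoxia genes, 3 were lower in the female line and none higher, namely Eno1, Hk1 and Ldha. Of 33 genes of the NRF2 and glutathione response, 3 were higher (Prdx5, Akr1b8 and Gpx3) and 2 lower (Txnrd1 and Prdx6). Of 9 imprinted genes, Mest and Ndn were higher and Impact lower. Of 22 p53 targets only Perp was higher, and of 19 AP-1 and immediate early genes none passed. Since 6.34% of all genes passed in either direction, these last 2 counts are near the background.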
